A study of Apis mellifera with 2 samples.

Results

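miR-1 and miR-133 are microRNAs known from the muscle of many animals, and both were counted in small RNA libraries from honey bee (Apis mellifera ligustica) larvae reared as queens or as workers. They were taken by their names in the table, ame-miR-1 and ame-miR-133, and are 2 of 53 named miRNAs and of 692 entries in the count table, which also lists 639 predicted miRNAs. The queen library was made from larvae moved into queen cups less than 18 h after hatching, 150 from each of 3 colonies of Zhenongda No.1, a strain selected for royal jelly output. The worker library was made from larvae of the same 3 colonies. Each library joined about equal amounts of RNA from collections on days 4, 5 and 6, when larvae were 73 to 90 h, then 97 to 114 h and last 121 to 138 h from hatching, with 40 to 60 larvae of each caste per colony. Listed counts summed to 2658259 for the queen library and to 2318675 for the worker library, so that 1 count equalled 0.376 CPM (counts per 1000000 listed counts) for queen larvae and 0.431 CPM for worker larvae. With 1 library per caste there were no replicates and no p-values, and caste and library cannot be told apart. Every interval is a 95% interval for counting error only.

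miRNAs are short RNAs that guide repression of messenger RNAs through the seed near their 5′ end. miR-1 is one of the most conserved animal miRNAs; in Drosophila it is switched on in the muscle lineage by the transcription factors Twist and Mef2, and larvae without it die with failing muscle. In mice miR-1 promotes the differentiation of muscle cells and represses a histone deacetylase, whereas miR-133 represses serum response factor and favours the proliferation of muscle precursors. The vertebrate genes of the pair lie close together and are transcribed as a unit. In the RefSeq annotation of the honey bee assembly Amel_HAv3.1 each member matched 1 gene, Mir1-1 for miR-1 and Mir133 for miR-133. Both lay on the same linkage group, inside the span of 1 annotated protein-coding gene, LOC550708. Between them were 5 annotated long noncoding RNA genes and 0 other miRNA genes. Strand is not listed in that table, so whether they share a transcript was not analysed here.

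The members stood far apart in abundance. miR-1 had 398994 counts in queen larvae and 417277 in worker larvae. miR-133 had 46 counts in queen larvae and 141 in worker larvae. miR-1 was thus among the leading miRNAs of both castes, and miR-133 was among the scarcer of the named miRNAs in both. Over all 692 entries miR-133 ranked 86 in queen larvae and 71 in worker larvae. It was 1 of 136 entries that reached a sum of 20 counts, the minimum set for assessing an entry. As a level, miR-1 stood at 150096 CPM in queen larvae (149667 to 150526) and 179964 CPM in worker larvae (179469 to 180459). miR-133 stood at 17.3 CPM in queen larvae (12.7 to 23.1) and 60.8 CPM in worker larvae (51.2 to 71.7). With totals of listed counts, the intervals of the castes did not overlap for either member. Separation beyond counting error was not particular to them. Intervals of the log2 ratio of queen over worker also excluded 0 for miR-275, miR-184 and miR-305. These are the named miRNAs within 3-fold of the summed count of miR-1. Of those within 3-fold of miR-133, the intervals excluded 0 for miR-281, miR-29b, miR-263b, miR-927 and miR-34. They held 0 for miR-1000, miR-210 and miR-13a. How many of all entries had caste intervals that did not overlap was not counted. For miR-1 the direction between the castes depended on how the libraries were scaled, as given below. The listed counts contained 15.0% miR-1 in queen larvae and 18.0% in worker larvae. For miR-133 the share was 0.00173% in queen larvae (0.00127 to 0.00231) and 0.00608% in worker larvae (0.00512 to 0.00717). In bulk RNA of whole larvae, fewer muscle cells and less of a miRNA per cell cannot be told apart.

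Within each library the ratio of the members was taken from the same RNA and the same reads. The queen library held 8674 miR-1 counts for each miR-133 count (6503 to 11848). The worker library held 2959 (2509 to 3516). These intervals did not overlap. The ratio of miR-1 to miR-133 was 2.93-fold higher in the queen library than in the worker library (2.09 to 4.18), a log2 difference of 1.55 (1.06 to 2.06). Stated the other way, miR-133 made up 1.15 of every 10000 counts of the pair in queen larvae (0.844 to 1.54) and 3.38 in worker larvae (2.84 to 3.98). At the worker ratio, the queen library's miR-1 count would have gone with 135 miR-133 counts, where 46 were listed. The interval of the caste difference in the ratio would first have held 1 at 104 queen counts of miR-133. Library totals cancel in this comparison, so it does not depend on how the libraries are scaled. Ligation and amplification work better on some sequences than on others, so neither ratio measures how many molecules of miR-1 a larva held for each of miR-133.

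**Figure D1:**
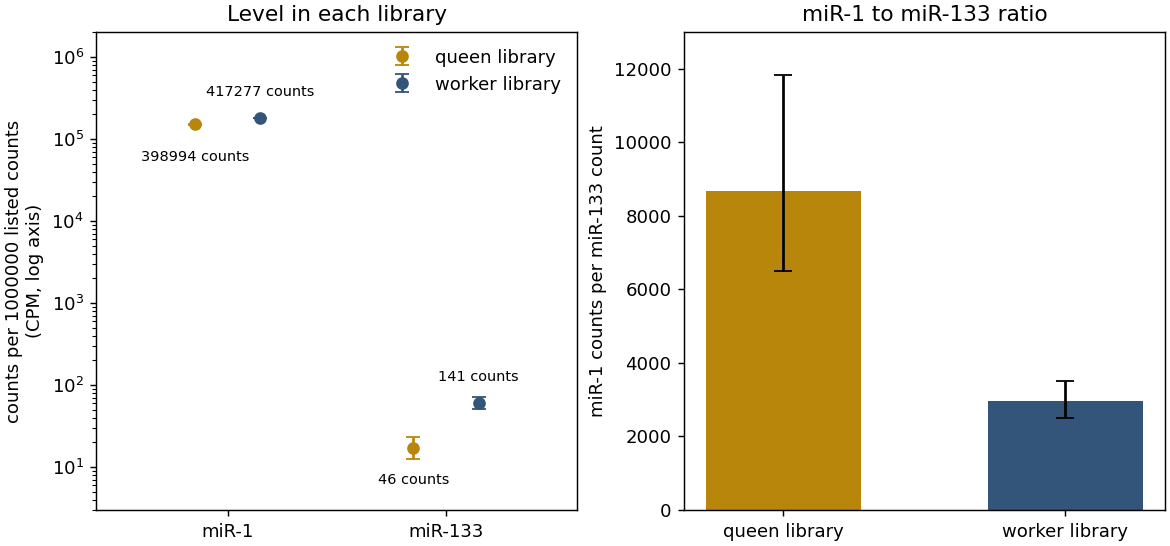
The left panel plots the level of each member in CPM on a log axis, with queen points left of worker points, and the right panel plots the miR-1 counts per miR-133 count in each library; bars through points and columns are exact 95% intervals for counting error. The levels of miR-1 lie close together at 150096 CPM in queen larvae and 179964 CPM in worker larvae, whereas miR-133 stands at 17.3 CPM in queen larvae and 60.8 CPM in worker larvae, and the ratio is 8674 in queen larvae and 2959 in worker larvae.

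Of the members, miR-133 differed more between the castes. Worker larvae had a 3.51-fold higher CPM of miR-133 (2.50 to 5.01), which as log2 of queen over worker is −1.81 (−2.33 to −1.32). At equal CPM in both castes the queen library would have held 162 counts of miR-133. An entry counted as higher in 1 caste at a ratio of at least 2 with an interval that excluded 1, and miR-133 was called higher in the worker library. Among the 49 named miRNAs that reached the count minimum, 12 were called in that direction, which is 24.5%, and 1 in the queen direction, which is 2.04%. Over all 136 entries that reached it, predicted ones included, the shares were 28.7% in the worker direction and 11.0% in the queen direction. The split of named miRNAs depended on the scaling. TMM factors and the median of ratios are scalings that place the typical entry near no difference. The split became 4 queen and 9 worker calls with TMM factors, the same with the median of ratios, and 5 queen and 9 worker calls without the 5 most abundant miRNAs in the totals. Over all entries the 15 queen and 39 worker calls became 20 queen and 30 worker, 20 queen and 29 worker, and 21 queen and 28 worker under these scalings. The point estimate for miR-133 would have come under 2-fold at 81 queen counts, and its interval would have held 1 at 127.

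miR-1 differed little. The quotient of its CPM, queen over worker, was 0.834, a log2 ratio of −0.26 (−0.27 to −0.26), and it was not called in either direction. The narrow interval reflects the depth of miR-1 and leaves out the choice of scaling, which was larger than the difference. The log2 ratio of miR-1 was 0.16 with TMM factors, 0.20 with the median of ratios and 0.26 with totals that left out the 5 most abundant named miRNAs, and so turned positive. All log2 ratios shift together under a scaling, here by 0.43, 0.46 and 0.52 in that order. The value for miR-1 was −0.28 with totals of named miRNAs and −0.31 with totals that left out both members. The direction of miR-1 between the castes was therefore positive in 3 of 6 scalings and negative in 3. miR-133 lay below −1 in all 6, between −1.86 and −1.29. The share of miR-1 was itself part of the totals, as was that of miR-275, the leading miRNA, at 39.0% in queen larvae and 33.8% in worker larvae.

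**Figure D2:**
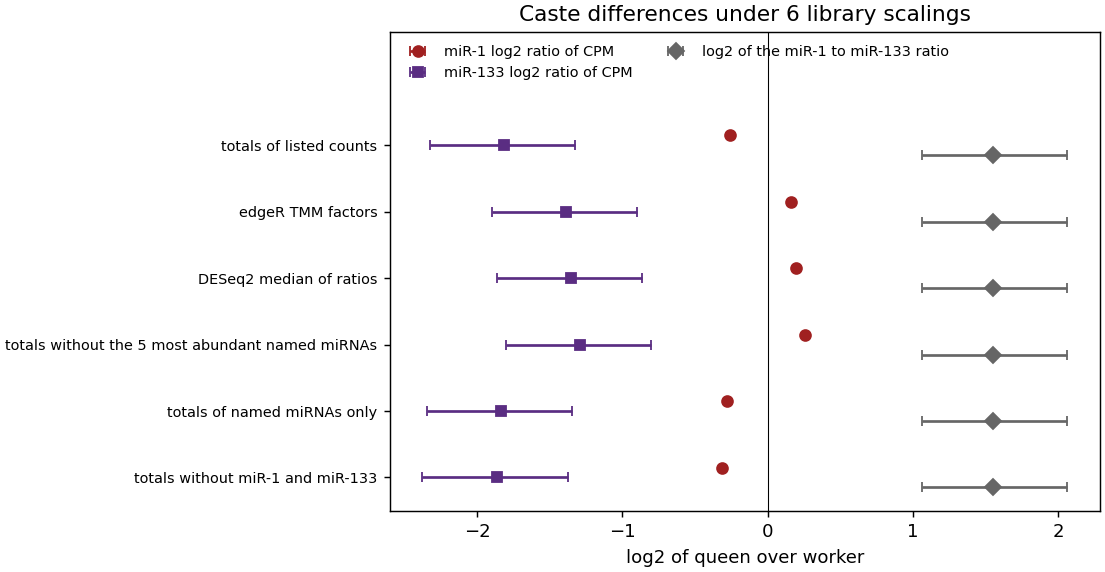
Points show the log2 of queen over worker for the CPM of miR-1 (circles), the CPM of miR-133 (squares) and the ratio of miR-1 to miR-133 (diamonds) under 6 library scalings, with 95% intervals for counting error. miR-1 lies on both sides of 0, from −0.31 to 0.26, miR-133 stays between −1.86 and −1.29, and the ratio of the members stands at 1.55 throughout, since the scaling cancels.

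Among named miRNAs the members took different places. miR-1 ranked 3 of 53 in the queen library, behind miR-275 and miR-184, and 2 of 53 in the worker library, behind miR-275. The exchange was with miR-184, a miRNA needed for female germline and egg development in Drosophila, which had 435758 queen counts and 333644 worker counts. The queen library held 0.916 miR-1 counts per miR-184 count (0.912 to 0.920), and the worker library 1.25 (1.24 to 1.26). Against miR-275 the ratio was 0.385 in queen larvae (0.384 to 0.387) and 0.532 in worker larvae (0.530 to 0.534). So relative to both of these abundant miRNAs, miR-1 was lower in the queen library, whatever the scaling. Of the 3 named miRNAs within 3-fold of the summed count of miR-1, which were miR-275, miR-184 and miR-305, 0 were called, and their log2 ratios of queen over worker ran from 0.19 to 0.58.

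miR-133 ranked 45 of 53 in queen larvae and 42 of 53 in worker larvae. In the queen library its 46 counts lay next to the 61 of miR-29b and the 41 of miR-1000, and it held 0.754 counts per miR-29b count (0.503 to 1.12) and 1.12 per miR-1000 count (0.720 to 1.75). Both intervals held 1, so these neighbours in the order could not be told apart by their counts. In the worker library it held 1.81 counts per miR-29b count (1.36 to 2.42), with 141 counts against 78, and 0.580 per count of miR-263b (0.468 to 0.717), which had 243. There the interval excluded 1 on both sides.

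Most named miRNAs of similar depth to miR-133 stood closer to no caste difference than it did. Of the 8 other named miRNAs whose summed count lay within 3-fold of the 187 of miR-133, 2 were called higher in worker larvae and 0 in queen larvae, a share close to the 24.5% of all named miRNAs. These 2 were miR-281, with 20 queen and 52 worker counts, and miR-263b, with 71 queen and 243 worker counts. The other members of this group were miR-1000, miR-210, miR-13a, miR-29b, miR-927 and miR-34, and the log2 ratios of the 8 had a median of −0.32 and ran from −1.97 for miR-263b to 0.49 for miR-210. These log2 ratios were below 0 for 7 of the 8, beside 37 of all 49 named miRNAs assessed. The interval of miR-210 held 0 (−0.09 to 1.09). These signs depend on the scaling. Those of miR-1000, miR-13a, miR-927 and miR-34 turn positive with the shift of 0.43 by TMM factors. Against each of these 8 the caste difference of miR-133 was also taken as a ratio within the library, which is free of scaling. The ratio of miR-133 to the other miRNA was lower in the queen library for 6 of 8, with intervals below 1. The exceptions were miR-281, at a log2 difference of −0.24 (−1.17 to 0.73), and miR-263b, at 0.16 (−0.49 to 0.80). These ratios restate the same counts. Of all named miRNAs assessed, 44 lay higher than miR-133 in log2 ratio and 4 lower. Of the 35 predicted entries of the same depth, 29 had counts in both libraries. Among these 29 the median log2 ratio was −0.52, 6 lay lower than miR-133 and 23 higher. Of the 29, 9 were called higher in worker larvae and 1 in queen larvae, beside 28.7% and 11.0% of all 136 entries assessed. The other 6 were listed in 1 library only, and each was called higher in that library with 3 counts put in place of 0.

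**Figure D3:**
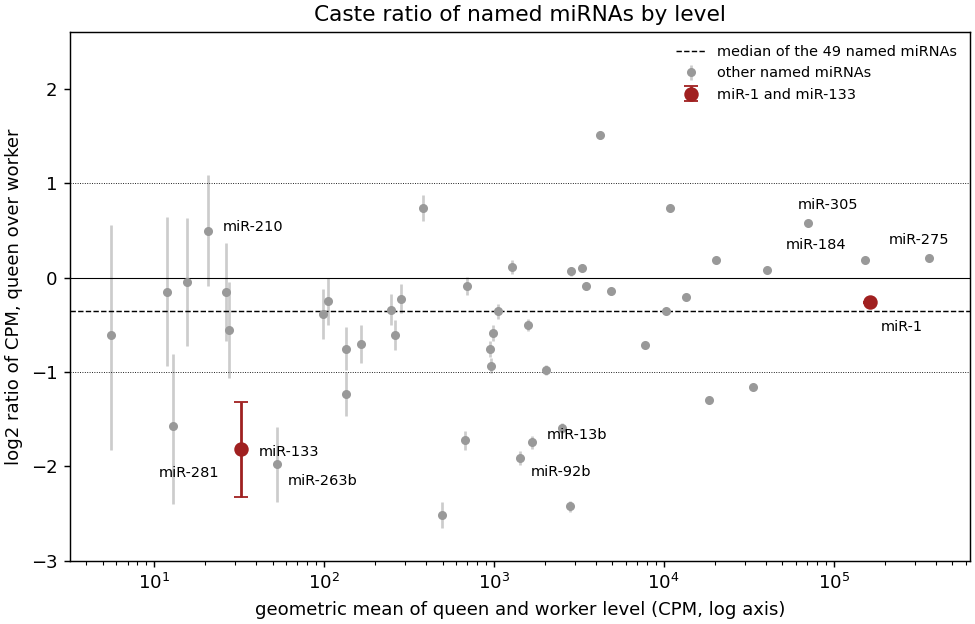
Each point is 1 of the 49 named miRNAs above the count minimum, with the geometric mean of its queen and worker CPM on a log x axis, its log2 ratio of queen over worker on the y axis and a 95% interval for counting error; dotted lines mark 2-fold and the dashed line the median of −0.36. miR-1, at −0.26, lies near the median at the right, and miR-133, at −1.81, lies among the lowest ratios at the left, where intervals are wide.

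Over the 49 named miRNAs the median log2 ratio of queen over worker was −0.36. miR-1 lay 0.10 above this median, with 27 of the named miRNAs lower and 21 higher. miR-133 lay 1.45 below it, with 4 lower and 44 higher. Those 4 were miR-124, miR-263, miR-263b and miR-92b. These distances from the median do not depend on the scaling. The 3 named miRNAs nearest to miR-1 in log2 ratio were miR-34 at −0.25, miR-125 at −0.22 and miR-8 at −0.21. The 3 nearest to miR-133 were miR-13b at −1.75, miR-7 at −1.73 and miR-92b at −1.91, each within the interval of miR-133. Likeness here is a difference of log2 ratios over 2 libraries, so many miRNAs can share a value.

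Of other miRNAs tied to muscle in Drosophila, miR-92b was higher in worker larvae and the others were not called. The list was miR-92b, which represses the muscle factor Mef2 and is induced by it, miR-9a, and let-7, miR-100 and miR-125, whose shared gene is needed when nerve and muscle are remodelled at metamorphosis. Of these 5 miRNAs, 1 was called higher in worker larvae and 0 in queen larvae, which is near the 24.5% of all named miRNAs, and their median log2 ratio was −0.22. miR-92b had 1960 counts in queen larvae and 6444 in worker larvae, at a log2 ratio of −1.91 (−1.99 to −1.84). The ratio of miR-133 to miR-92b differed between castes by a log2 value of 0.10 (−0.42 to 0.60), so a difference of these 2 could not be seen at this depth. miR-9a had 2497 counts in queen larvae and 2793 in worker larvae, a log2 ratio of −0.36. miR-100 had −0.15 and miR-125 −0.22, and like that of miR-1 these 3 values and the list's median turn positive with the scalings that shift log2 ratios upward. let-7 stood apart, with 37658 queen counts and 19684 worker counts and a log2 ratio of 0.74. The ratio of miR-133 to let-7 was lower in the queen library, by a log2 value of −2.55 (−3.07 to −2.06).

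miRNAs of other tissues were looked at in the same libraries, beside the 24.5% of all named miRNAs called higher in the worker library. Of the nervous-system list, 5 of 5 miRNAs were in the table and 3 reached 20 counts, of which 2 were called higher in the worker library. The list summed to 588 CPM in queen larvae and 2433 CPM in worker larvae. miR-124, a miRNA of neurons, had 550 queen counts and 2743 worker counts, and miR-7, which acts in sensory and photoreceptor cells in Drosophila, had 996 queen counts and 2873 worker counts. miR-137 had 12 queen and 16 worker counts, miR-932 had 4 queen and 8 worker counts, and miR-219 had 0 queen and 2 worker counts. The 3 counts put in place of 0 for calling equal 1.13 CPM in the queen library. The ratio of miR-133 to miR-124 was higher in the queen library by a log2 value of 0.70 (0.17 to 1.21). For miR-133 to miR-7 it was −0.09 (−0.61 to 0.41), a difference not seen at this depth. Of the midgut list, miR-281 was called higher in the worker library on 20 queen and 52 worker counts, and miR-275 was not called, at a log2 ratio of 0.21 (0.20 to 0.21). The midgut list summed to 389731 CPM in queen larvae and 338005 CPM in worker larvae, nearly all of it miR-275. The part of these tissues in the difference of miR-133 was not tested.

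The pair was set beside 9 other pairs of related or neighbouring miRNAs in these libraries. The caste difference of the ratio of miR-1 to miR-133, 1.55 on the log2 scale, ranked 3 of 10 by size. The ratio of miR-13a to miR-13b was higher in the queen library by 1.59 (1.07 to 2.11) and that of miR-92a to miR-92b by 1.57 (1.39 to 1.75), so the intervals of all 3 overlapped. In the other 7 of these pairs the difference was below 0.5 in size, from 0.01 for miR-279 and miR-996 to 0.46 for miR-12 and miR-283. The median size over the 9 other pairs was 0.37. The gap between these sizes comes in part from the choice of pairs. All 9 pairs were chosen with earlier results of these data known, so the rank and the median depend on that choice. Of other partners of the same clusters, 3 ratios were also looked at after their values were seen, and lay between them. Further partners were not paired, such as miR-277, at a log2 ratio of −1.23, with miR-317, at −0.09. The ratio of let-7 to miR-100 was higher in the queen library by 0.88 (0.84 to 0.93), that of let-7 to miR-125 by 0.96 (0.81 to 1.12) and that of miR-34 to miR-277 by 0.98 (0.64 to 1.32). Near-identical relatives, such as miR-13a and miR-13b, can share reads, and the sources used here do not give how such reads were counted.

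**Figure D4:**
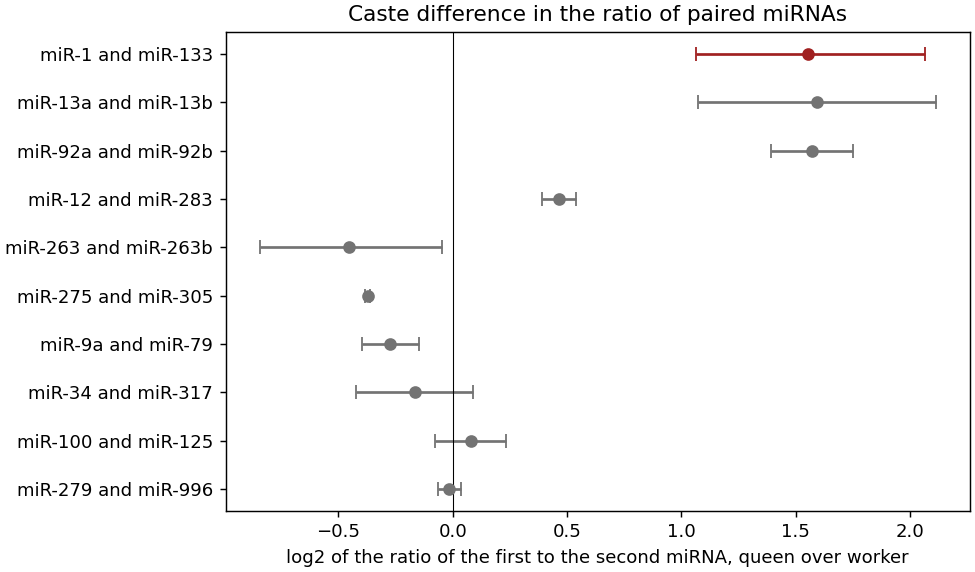
Points show, for 10 pairs of miRNAs, the log2 of the ratio of the first to the second miRNA in the queen library over that in the worker library, with 95% intervals for counting error. The pair of miR-1 and miR-133 lies at 1.55, next to miR-13a and miR-13b at 1.59 and miR-92a and miR-92b at 1.57, and the other 7 pairs lie within 0.5 of 0.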

How the data were processed

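The deposited table holds raw whole-number counts for each miRNA in 1 column per caste. Per the labels' protocols, RNA was extracted with Trizol, a gel fraction of 18 to 30 nt was ligated to 5′ and then 3′ adapters, amplified by RT-PCR and sequenced on the Solexa platform. Not given in the sources used here are the aligner, the miRNA caller, the build of the genome and the handling of reads that match more than 1 miRNA. The table does not tell arms apart and lists no sequences; its 242 further columns have 0 filled cells.

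From the counts, CPM used the totals of listed counts. Ratios of CPM and of 2 counts carry exact conditional (Clopper-Pearson) 95% intervals, and ratios of ratios exact noncentral hypergeometric ones; for miR-275 and miR-305 a normal interval on the log scale was used. The reads carry no molecular identifiers and PCR copies are not independent, so intervals cover counting error only. For calling, a count of 0 was replaced by 3 counts. The calling step was tested on simulated data with planted differences and counting error only, which leaves out PCR copies and differences between colonies. The members and lists were chosen with earlier results of these data known. The text names both members, the 3 named miRNAs nearest to each in log2 ratio, those within 3-fold of its summed count, and the listed miRNAs. Alternatives were other scalings (edgeR 4.0.16 TMM, DESeq2 1.42.0 median of ratios, other totals), 0.5 added counts, 2 or 5 reads per molecule, a 99% interval, other count minimums and other ratio thresholds. Neither package was used for tests. Intervals were computed with scipy 1.17.1 in Python 3.11.15, scaling factors in R 4.3.3.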

Additional observations from a re-analysis of the deposited data

How the results depend on the processing

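The caste difference in the ratio of miR-1 to miR-133 kept its log2 value of 1.55 under all 5 other scalings, by construction, and was 1.54 with 0.5 counts added. Its interval was 0.92 to 2.23 at 99%, 0.84 to 2.29 if each molecule had been read 2 times and 0.45 to 2.84 if read 5 times. For miR-133 alone the log2 ratio of CPM, −1.81, became −1.29 without the 5 most abundant miRNAs in the totals, and with 5 reads per molecule its interval was −3.07 to −0.70. For miR-1 it was −0.26 and became 0.16 with TMM, 0.20 with the median of ratios, 0.26 without the 5 most abundant miRNAs, −0.28 with named totals and −0.31 without both members in the totals. Shares of miR-1 became 15.5% of queen and 18.9% of worker counts with named totals, and 24.6% of queen and 27.2% of worker counts without miR-275 in the totals, where miR-133 took 0.00284% of queen and 0.00919% of worker counts. The count of named miRNAs in the queen direction (1) became 4 with TMM, 4 with the median of ratios, 5 without the 5 most abundant miRNAs, 3 at a ratio of 1.5 and 0 at 4; the count in the worker direction (12) became 20 at 1.5 and 2 at 4, where miR-133, at 3.51-fold, was not called. Over all entries the count in the queen direction (15) became 23 with no minimum count and 6 with a minimum of 100; that in the worker direction (39) became 58 with none, 25 with 100 as the minimum and 16 at a ratio of 4. These changes follow from the entries assessed, the threshold or a constant added to every log2 ratio. No paired analysis was possible because there is a single library per caste, and for the same reason none could be left out. Depth limits miR-133, which rests on 187 counts.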
